A study of Homo sapiens with 6 samples.

Results

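NT5E, which encodes the cell-surface enzyme CD73, and 9 genes of the YAP-TEAD pathway were followed in SW480 cells given Amuc_0904. Each of the 10 genes was found by its symbol in the deposited expression table, where each had 1 row among 60664. All 10 were above the filter on low values and were among the 14421 genes tested. The 10 were chosen by earlier values of this same table, the TPM of treated and buffer libraries, so the difference between the treatments is described for them and not tested. SW480 is a long-established colorectal adenocarcinoma line of human origin, and all cells were labelled WT. Of the 6 RNA sequencing libraries, 3 came from cells given Amuc_0904 and 3 from cells given buffer. Names of this form are given to genes of Akkermansia muciniphila, a bacterium of the gut mucus layer, and the labels describe the preparation no further. The labels give no dose or exposure time and do not say whether replicates were separate cultures, so any p-value measures only the spread between these libraries.

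YAP1 and its relative TAZ (gene WWTR1) are coactivators that cannot bind DNA themselves and act through the TEAD transcription factors. The Hippo kinases LATS1 and LATS2 phosphorylate them, which holds them in the cytoplasm or marks them for degradation, so the activity of the pathway is set largely at the protein level and is often read from its target genes. ANKRD1, AMOTL2, AXL, LATS2 and NT5E are all used as such targets, and AMOTL2 and LATS2 also feed back to restrain YAP and TAZ. CD73 sits on the outer face of the plasma membrane and turns AMP into adenosine, a signal that dampens immune cells.

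Expression is given in TPM, a share of each library's transcripts scaled by their length. Column sums ranged from 996107 to 997036 TPM. Read numbers are unknown, so no counting interval is given. In a colorectal epithelial marker list 5 of 7 genes were at 1 TPM or more in every library, with a summed level of 7088 to 7377 TPM in Amuc_0904 libraries and 7900 to 8142 TPM in buffer libraries, while VIL1 was under 1.1 TPM and CDH17 at or near 0. Fibroblast, leukocyte and endothelial lists summed to at most 2.89 TPM in Amuc_0904 libraries and at most 3.76 TPM in buffer libraries, with DCN, PTPRC and KDR listed at 0 throughout. In these lists COL1A1, of fibroblasts, and CD14, of leukocytes, were at 1 TPM or more in every library. Over all tested genes 62.5% had a log2 fold change below 0 and the median was -0.06. By limma 53 genes rose and 144 fell past an adjusted p of 0.05, a split that was 43 and 42 with libraries centred on their medians, 46 and 56 after quantile normalization and 78 and 40 once the trend of expression with the GC content of transcripts had been taken out of each library. That trend was taken on each library's deviation from the mean of all libraries, so it is relative to that mean. It differed between libraries, at -0.042, 0.002 and -0.112 log2 units per 10 percentage points of GC in Amuc_0904 replicates 1, 2 and 3. In buffer replicates 1, 2 and 3 it was 0.005, 0.093 and 0.054. The part of this trend in the differences below was examined only through the values after its removal.

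The promoters of NT5E and of 3 pathway genes are shown because a TEAD binding motif is the feature by which YAP and TAZ reach their targets. The sequences are RefSeq windows on GRCh38.p14, from 250 bases before to 50 bases after a transcription start, read in the direction of the gene. Capitals mark the TEAD motif GGAATG, or CATTCC where it lies on the opposite strand, and the AP-1 motif TGANTCA, where N is any base.
NT5E promoter, chr6:85449833-85450132, plus strand: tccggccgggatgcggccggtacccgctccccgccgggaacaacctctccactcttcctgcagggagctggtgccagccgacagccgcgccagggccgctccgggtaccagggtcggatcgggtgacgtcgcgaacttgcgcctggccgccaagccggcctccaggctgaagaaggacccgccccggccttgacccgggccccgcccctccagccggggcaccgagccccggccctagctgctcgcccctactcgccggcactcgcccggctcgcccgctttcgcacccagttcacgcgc
ANKRD1 promoter, chr10:90921038-90921337, minus strand: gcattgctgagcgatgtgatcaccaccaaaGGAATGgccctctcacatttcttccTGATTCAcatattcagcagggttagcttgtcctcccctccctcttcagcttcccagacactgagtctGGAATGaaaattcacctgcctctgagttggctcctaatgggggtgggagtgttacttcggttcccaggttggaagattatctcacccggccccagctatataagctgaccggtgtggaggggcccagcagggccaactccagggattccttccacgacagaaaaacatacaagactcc
AMOTL2 promoter, chr3:134374398-134374697, minus strand: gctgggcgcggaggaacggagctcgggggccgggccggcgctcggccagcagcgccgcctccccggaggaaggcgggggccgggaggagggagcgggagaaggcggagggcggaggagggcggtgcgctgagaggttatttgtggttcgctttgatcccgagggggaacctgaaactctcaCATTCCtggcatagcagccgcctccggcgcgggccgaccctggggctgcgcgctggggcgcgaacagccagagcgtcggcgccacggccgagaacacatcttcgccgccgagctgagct
LATS2 promoter, chr13:21061537-21061836, minus strand: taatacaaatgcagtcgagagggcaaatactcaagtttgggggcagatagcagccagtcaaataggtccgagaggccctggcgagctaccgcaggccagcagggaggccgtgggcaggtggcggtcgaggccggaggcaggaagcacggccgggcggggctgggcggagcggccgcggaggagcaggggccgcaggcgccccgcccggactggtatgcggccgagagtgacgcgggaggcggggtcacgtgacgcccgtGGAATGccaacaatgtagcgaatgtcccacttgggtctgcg

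Windows were found for 8 of the 10 genes (all except TEAD1 and TEAD4), 12 windows in all since some genes have more than 1 start. The TEAD motif was present in at least 1 window of 6 of the 8 genes, namely AMOTL2, ANKRD1, LATS2, AJUBA, AXL and YAP1. Of the 12 windows 6 held the motif, and AMOTL2, AJUBA and AXL each also had a window without it. For comparison, 16.7% of all 27305 gene symbols with a window, and 4928 of all 35116 windows, held it. ANKRD1 carried it at 2 positions, 220 and 128 bases before the start, and also carried the AP-1 motif 195 bases before the start, the single AP-1 match among the windows of these genes (7.71% of all windows held one). In AMOTL2 the TEAD motif lay 69 bases before the start, in the window of 1 of its 2 starts, which also held the TCF/LEF motif CTTTGA, present in 12.9% of all windows. The NT5E window held none of these 3 motifs, and neither did the windows of WWTR1. No match says only that these letters are not in this window, and a match is not by itself a bound site.

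NT5E had 19.44, 18.84 and 21.12 TPM in Amuc_0904 replicates 1, 2 and 3, against 13.22, 10.95 and 11.93 TPM in buffer replicates 1, 2 and 3. Every Amuc_0904 library was above every buffer library, with a gap between the groups that was wider than the spread within either. The means were 19.8 ± 1.18 TPM in Amuc_0904 libraries and 12.03 ± 1.14 TPM in buffer libraries (SD, n = 3 each), a 1.65-fold difference of mean TPM. On the log2(TPM + 1) scale the fold change was 0.68 with a standard error of 0.09, which is higher than that of 99.3% of tested genes. NT5E was the 1 gene among the 10 past the limma threshold, where 1.37% of all tested genes were past it in either direction, 0.368% with a higher and 0.999% with a lower level. Since the gene was chosen with this difference in view, nothing is read from that count. Its place past the threshold ended when Amuc_0904 replicate 1, 2 or 3 or buffer replicate 2 or 3 was left out, while the log2 fold change without any single library lay between 0.62 and 0.74. It was 0.69 after removal of the GC trend and 0.76 after centring. NT5E (ENSG00000135318) lies at chr6:85449584-85495791 on GRCh38, plus strand, and overlaps no other annotated gene.

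**Figure D1:**
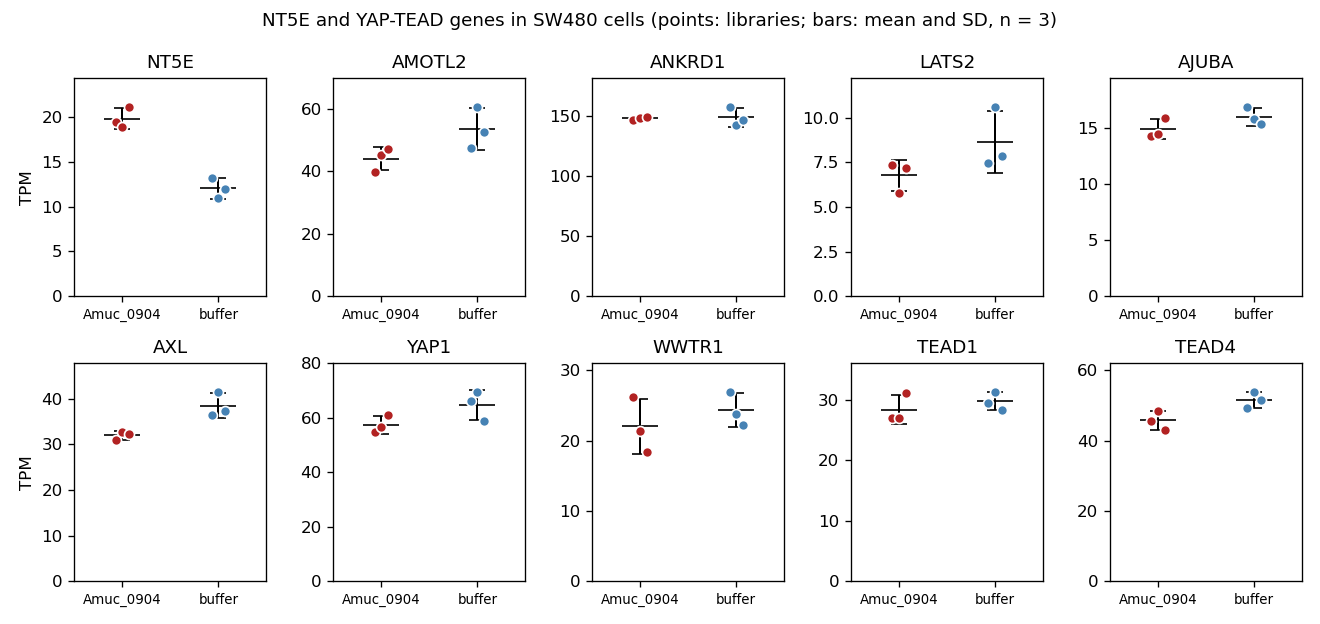
TPM of the 10 genes in each library, with Amuc_0904 on the left and buffer on the right of each panel. Points are libraries, long ticks are means and bars are SD (n = 3), and every vertical axis starts at 0. NT5E is the single panel in which all Amuc_0904 points sit above all buffer points, while AMOTL2, LATS2, AXL and TEAD4 have all Amuc_0904 points below.

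ANKRD1, a nuclear ankyrin repeat protein gene and one of the most used readouts of YAP and TAZ, had nearly equal levels in the 2 groups. It was at 146.60, 147.82 and 148.48 TPM in Amuc_0904 libraries, against 157.33, 142.21 and 146.66 TPM in buffer libraries. All 3 Amuc_0904 values lay inside the range of the buffer values, and their coefficient of variation was 0.646% against 5.22% in buffer libraries. The log2 fold change was -0.01 with a standard error of 0.06, and it was 0.07 with libraries centred on their medians, so its sign depends on the scaling. ANKRD1 (ENSG00000148677) lies at chr10:90912096-90921276 on GRCh38, minus strand, with no overlapping gene. Of the 10 genes it was the most abundant, at a higher mean level than 93.9% of tested genes. NT5E stood at 13.3, 12.7 and 14.2 TPM per 100 TPM of ANKRD1 in Amuc_0904 libraries, against 8.40, 7.70 and 8.13 in buffer libraries. This ratio is taken within each library, so a factor common to all genes of a library does not enter it. The groups did not overlap, but NT5E was chosen with its difference in view. Nothing further is therefore read from this separation, or from that of the NT5E ratios and shares below.

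AMOTL2, which encodes an angiomotin-like scaffold that binds YAP at cell junctions, had 39.85, 45.25 and 46.98 TPM in Amuc_0904 libraries, against 47.35, 60.57 and 52.65 TPM in buffer libraries. The groups were separated by less than 1 TPM, between Amuc_0904 replicate 3 and buffer replicate 1. The log2 fold change was -0.27 with a standard error of 0.10, and -0.13 after removal of the GC trend. LATS2, the kinase gene, had 7.35, 5.79 and 7.21 TPM in Amuc_0904 libraries, against 7.46, 10.61 and 7.83 TPM in buffer libraries. Again the groups only just failed to overlap, and buffer replicate 2 was well above the other two. Its log2 fold change of -0.30 with a standard error of 0.15 was -0.16 without buffer replicate 2. GENCODE 29 places genes on the opposite strand across part of LATS2, AXL, YAP1, WWTR1 and TEAD1, and no strand protocol is given, so some of the reads counted for these 5 genes may belong to a neighbour. Genes on the same strand overlap AMOTL2, AJUBA, LATS2, WWTR1 and TEAD1, and reads of the shared stretches are likewise uncertain.

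AXL, a receptor tyrosine kinase gene of the TAM family, had 30.92, 32.78 and 32.24 TPM in Amuc_0904 libraries, against 36.48, 41.49 and 37.39 TPM in buffer libraries. Its groups did not overlap, and the nearest libraries were 32.78 TPM in Amuc_0904 cells and 36.48 TPM in buffer cells. The mean was 31.98 ± 0.957 TPM in Amuc_0904 libraries and 38.5 ± 2.67 TPM in buffer libraries, with a log2 fold change of -0.26 (standard error 0.07). After removal of the GC trend this was -0.14. AXL and NT5E, both counted among targets of the pathway and both cell-surface proteins, had log2 fold changes of opposite sign as deposited and under the 3 other scalings. As deposited, 62.5% of all tested genes were below 0 like AXL, which was not past the limma threshold. The contrast between these chosen genes was not tested. NT5E stood at 62.0 ± 4.10 TPM per 100 TPM of AXL in Amuc_0904 libraries and at 31.5 ± 4.94 in buffer libraries.

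AJUBA, a LIM-domain protein gene whose product binds and restrains LATS kinases, had 14.23, 14.44 and 15.87 TPM in Amuc_0904 libraries, against 16.85, 15.75 and 15.31 TPM in buffer libraries. The groups overlapped, and the log2 fold change of -0.10 (standard error 0.08) was 0.01 after removal of the GC trend, so no direction is given. AJUBA and NT5E exchanged places in the order of levels. In each Amuc_0904 library NT5E was above AJUBA, at 133 ± 3.08 TPM per 100 TPM of AJUBA, and in each buffer library it was below, at 75.3 ± 5.01 TPM per 100.

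The coactivators were both well expressed. YAP1 had 54.73, 56.63 and 60.99 TPM in Amuc_0904 libraries, against 66.06, 69.58 and 58.89 TPM in buffer libraries. WWTR1, the TAZ gene, had 26.25, 21.37 and 18.42 TPM in Amuc_0904 libraries, against 26.93, 23.84 and 22.25 TPM in buffer libraries. In both genes the groups overlapped. The log2 fold change was -0.17 with a standard error of 0.08 for YAP1 and -0.15 with a standard error of 0.13 for WWTR1, and WWTR1 went to -0.03 without Amuc_0904 replicate 3. YAP1 held 72.3% ± 4.62 of the summed TPM of the pair in Amuc_0904 libraries and 72.7% ± 1.72 in buffer libraries, so the balance of the pair differed by less than the spread between libraries. The pair summed to 81.0, 78.0 and 79.4 TPM in Amuc_0904 libraries, against 93.0, 93.4 and 81.1 TPM in buffer libraries. Those sums only just failed to overlap, at Amuc_0904 replicate 1 and buffer replicate 3.

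Of the DNA-binding partners, TEAD4 had 45.55, 48.56 and 43.11 TPM in Amuc_0904 libraries, against 49.29, 53.90 and 51.61 TPM in buffer libraries. The groups did not overlap, and the log2 fold change was -0.17 with a standard error of 0.07. TEAD4 had the highest transcript GC content of the 10 genes, 60.4%, and after removal of the GC trend its log2 fold change was 0.02, so its direction depends on the scaling. TEAD1 had 26.92, 26.96 and 31.15 TPM in Amuc_0904 libraries, against 29.51, 31.28 and 28.30 TPM in buffer libraries. Its groups overlapped, and the log2 fold change of -0.07 (standard error 0.08) was 0.01 with centring and with quantile normalization.

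All 4 TEAD genes were expressed, and TEAD4 gave the largest share of their summed TPM, 48.0% ± 2.67 in Amuc_0904 libraries and 47.9% ± 0.960 in buffer libraries. TEAD1 gave 29.8% ± 2.46 in Amuc_0904 libraries and 27.6% ± 0.676 in buffer libraries. TEAD2 gave 16.5%, 16.1% and 16.7% in Amuc_0904 libraries, against 18.0%, 18.7% and 18.5% in buffer libraries, the single share of the 4 whose groups did not overlap. The 4 genes together summed to 93.0, 96.9 and 95.7 TPM in Amuc_0904 libraries, against 105, 113 and 105 TPM in buffer libraries, with no overlap. Per TPM of the TEAD genes there were 0.835 ± 0.0330 TPM of YAP1 and WWTR1 in Amuc_0904 libraries and 0.829 ± 0.0591 in buffer libraries. The supply of coactivator transcript relative to TEAD transcript thus differed by less than the spread between libraries.

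**Figure D2:**
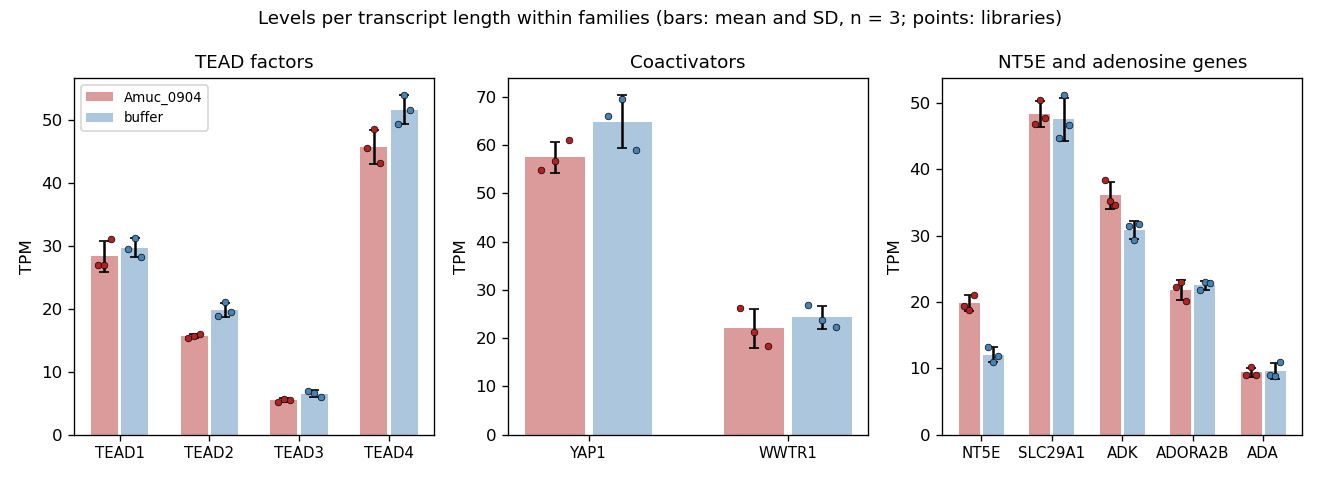
TPM of the TEAD factors, of the coactivators, and of NT5E with the other adenosine genes that follow, with Amuc_0904 bars left of buffer bars. Bars are means with SD (n = 3) and points are libraries. TEAD4 and YAP1 lead their families in both groups, and NT5E is at 19.8 TPM in Amuc_0904 libraries and 12.03 TPM in buffer libraries beside adenosine genes whose groups lie closer together.

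Set side by side, 9 of the 10 genes had a log2 fold change below 0, where 62.5% of all tested genes did, and the median of the 10 was -0.16 against -0.06 over all tested genes. Groups did not overlap for 1 gene with a higher level (NT5E), where 7.00% of all tested genes did so, and for 4 genes with a lower level (AMOTL2, LATS2, AXL and TEAD4), where 20.1% did so. The other 5 overlapped. Under other scalings 7 genes were below 0 after GC removal (AJUBA and TEAD4 joined NT5E above 0), 7 after centring (ANKRD1 and TEAD1 above) and 8 after quantile normalization (TEAD1 above). The 62.5% does not apply to these counts, since it holds for the values as deposited. The median over all tested genes was -0.002 after GC removal, 0.018 after centring and 0.007 after quantile normalization. AMOTL2, LATS2, AXL, YAP1 and WWTR1 stayed below 0 under each of these scalings, and NT5E stayed above. In these bulk samples, fewer cells of a type and less RNA per cell cannot be told apart.

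In order of level, ANKRD1 led in both groups with 148 ± 0.954 TPM in Amuc_0904 libraries and 149 ± 7.77 TPM in buffer libraries, followed by YAP1 with 57.5 ± 3.21 TPM in Amuc_0904 libraries and 64.8 ± 5.45 TPM in buffer libraries. AMOTL2 and TEAD4, next in the order, did not differ from each other beyond their spread in either group. LATS2 was the lowest, at 6.78 ± 0.863 TPM in Amuc_0904 libraries and 8.63 ± 1.72 TPM in buffer libraries. In the middle of the order, WWTR1 and NT5E did not differ from each other beyond their spread in Amuc_0904 libraries, and AXL was above TEAD1 in both groups. NT5E was the eighth of the 10 in Amuc_0904 libraries and the ninth in buffer libraries.

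**Figure D3:**
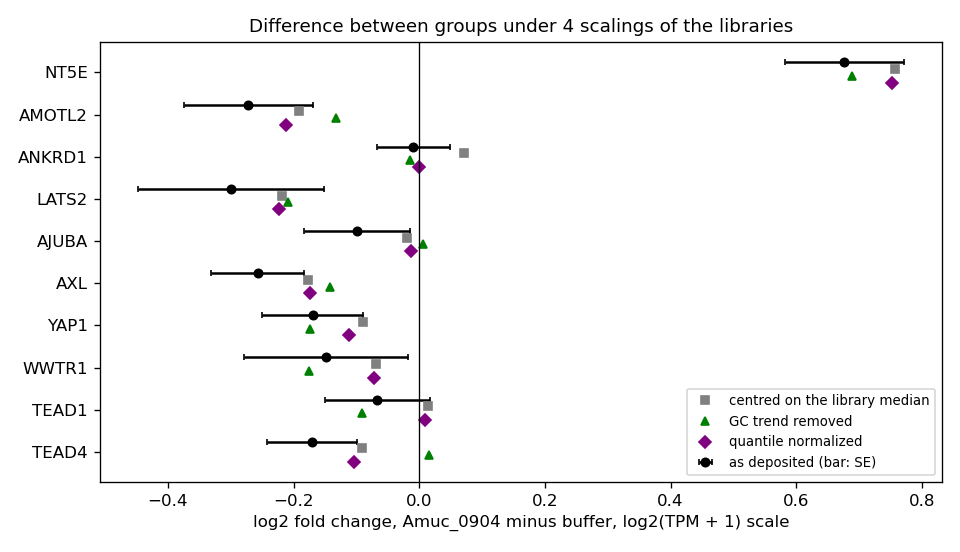
Log2 fold change of each gene, Amuc_0904 minus buffer, on the log2(TPM + 1) scale. Black points with standard error bars are the values as deposited, and grey squares, green triangles and purple diamonds are the values with libraries centred, with the GC trend removed and with quantile normalization. NT5E lies between 0.68 and 0.76 under all 4, while the other 9 genes lie between -0.30 and 0.07.

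The rest of the pathway was read from 8 lists, which hold 90 genes besides the 10, of which 70 were tested. By limma 0 of the 70 rose and 0 fell at an adjusted p of 0.05 (1.37% of all tested genes were called), the lowest adjusted p was 0.060, and 18 had an unadjusted p under 0.05. Over all 14421 tested genes 3001 had an unadjusted limma p under 0.05, which is the background for this count in each list. None of these other genes was called under any of the 13 alternatives.

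Among other targets in a 22-gene YAP and TAZ list, which also holds NT5E, AMOTL2, ANKRD1, LATS2 and AXL, 15 of 17 were tested, 0 rose and 0 fell by limma, and 3 had an unadjusted p under 0.05. Of these, 4 had a positive and 11 a negative log2 fold change, and the median was -0.11 against -0.06 over all tested genes. The most abundant was IGFBP3, which encodes a binding protein of insulin-like growth factors. It had 123.70, 126.14 and 155.50 TPM in Amuc_0904 libraries, against 100.82, 117.65 and 127.00 TPM in buffer libraries, and the groups overlapped (limma adjusted p = 0.29). CCN1 (CYR61), a matricellular protein gene and a standard target, had 30.56, 33.35 and 32.44 TPM in Amuc_0904 libraries, against 31.35, 37.19 and 31.94 TPM in buffer libraries (limma adjusted p = 0.76). Its close relative CCN2 (CTGF), chosen after its values were seen, was low, at 1.70 TPM in Amuc_0904 libraries and 2.24 TPM in buffer libraries (limma adjusted p = 0.36). FOXF2, a forkhead transcription factor gene also chosen after its values were seen, had the most negative value of the list, -0.44, with 7.81 TPM in Amuc_0904 libraries and 10.9 TPM in buffer libraries (limma adjusted p = 0.077).

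Upstream regulators of the pathway, from the kinases to junctional scaffolds, gave 23 tested genes of 27 besides LATS2 and AMOTL2, with 0 that rose or fell by limma and 2 with an unadjusted p under 0.05. Their median log2 fold change was -0.03, and 0.05 with libraries centred. WWC1 (KIBRA), a scaffold that activates LATS kinases, had 68.0 ± 0.525 TPM in Amuc_0904 libraries and 68.2 ± 2.20 TPM in buffer libraries. MOB1A, a coactivator of LATS kinases, had 53.6 ± 2.85 TPM in Amuc_0904 libraries and 53.2 ± 3.87 TPM in buffer libraries (limma adjusted p of 0.99 and 0.94). LATS2 held 62.7%, 58.8% and 55.5% of the summed TPM of both LATS kinases in Amuc_0904 libraries, against 63.1%, 69.7% and 67.0% in buffer libraries. These shares only just failed to overlap, at replicate 1 of each group. AMOTL2 made up 91.3% ± 0.700 of angiomotin family TPM in Amuc_0904 libraries and 91.8% ± 0.898 in buffer libraries.

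Beside the coactivators, TEAD1 and TEAD4, 3 further TEAD and VGLL genes of 6 were tested, and 0 rose or fell by limma, with 1 at an unadjusted p under 0.05. TEAD2 had 15.38, 15.64 and 15.95 TPM in Amuc_0904 libraries, against 18.88, 21.08 and 19.53 TPM in buffer libraries (limma adjusted p = 0.079). These did not overlap, and the log2 fold change of -0.32 was -0.16 after removal of the GC trend. VGLL4, a cofactor that competes with YAP for TEAD, had 16.4 ± 1.62 TPM in Amuc_0904 libraries and 17.8 ± 1.42 TPM in buffer libraries (limma adjusted p = 0.56). The median of the 3 was -0.21, and -0.03 after removal of the GC trend.

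The relatives of AJUBA, all 6 tested, had a median log2 fold change of -0.25 with 0 called by limma and 3 at an unadjusted p under 0.05. ZYX (zyxin, of focal adhesions) had 46.0 ± 3.39 TPM in Amuc_0904 libraries and 62.1 ± 8.01 TPM in buffer libraries, with a log2 fold change of -0.42 that was -0.19 after removal of the GC trend (limma adjusted p of 0.078 and 0.21). TRIP6 had 114 ± 7.30 TPM in Amuc_0904 libraries and 124 ± 6.84 TPM in buffer libraries (limma adjusted p = 0.37). The relatives and ligands of AXL, 3 of 4 tested, likewise gave 0 calls by limma and 1 gene at an unadjusted p under 0.05. GAS6, the ligand of AXL, had 61.6 ± 1.97 TPM in Amuc_0904 libraries and 71.0 ± 5.71 TPM in buffer libraries (limma adjusted p = 0.18), with a log2 fold change of -0.20 that was -0.005 after removal of the GC trend. TYRO3, another TAM receptor gene, had 9.55 ± 1.14 TPM in Amuc_0904 libraries and 11.2 ± 1.60 TPM in buffer libraries (limma adjusted p = 0.39).

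**Figure D4:**
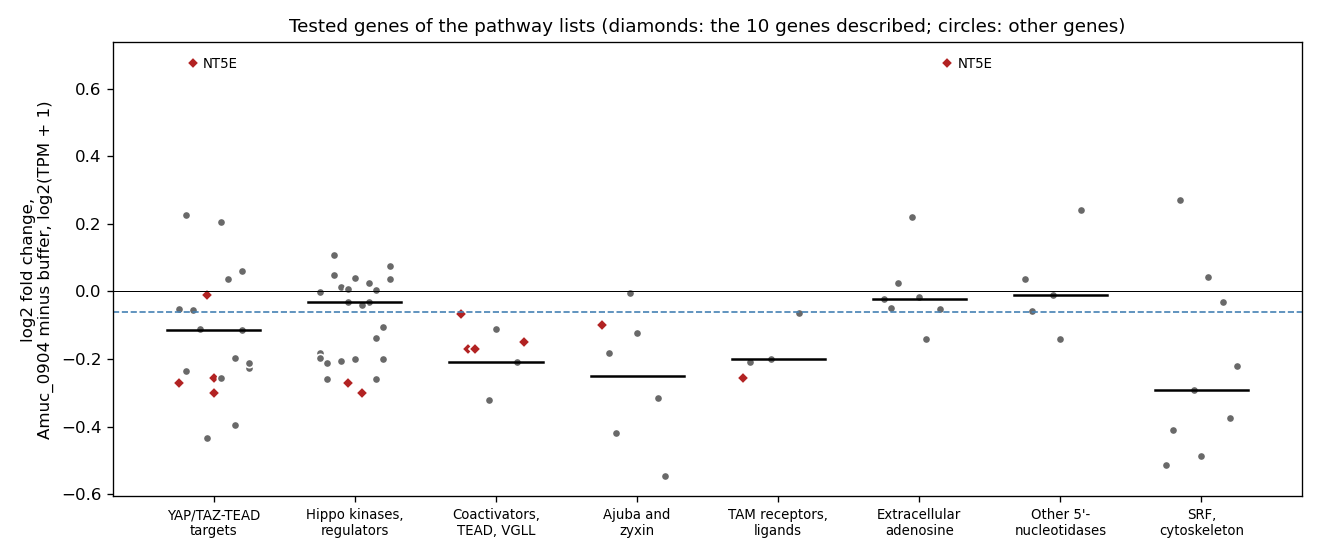
Log2 fold change, Amuc_0904 minus buffer, of the tested genes of the 8 lists. Red diamonds are the 10 genes described, grey circles the other genes, black lines the median of the circles in each list and the dashed line the median of all tested genes, -0.06. NT5E, which is in 2 lists, lies at 0.68 while every circle lies below 0.3.

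NT5E was also set against the genes that make, move, clear and sense extracellular adenosine. Of 14 such genes 7 were tested, and by limma 0 rose, 0 fell and 1 had an unadjusted p under 0.05. ENTPD1 (CD39), which supplies AMP to CD73, was under 1 TPM in every library. ENTPD2, of the same list, had 2.44, 3.21 and 2.71 TPM in Amuc_0904 libraries, against 2.48, 3.10 and 2.89 TPM in buffer libraries (limma adjusted p = 0.96). Both genes were chosen after their values were seen. SLC29A1, an adenosine transporter, had 46.77, 50.50 and 47.75 TPM in Amuc_0904 libraries, against 44.69, 51.14 and 46.73 TPM in buffer libraries (limma adjusted p = 0.87). ADK, the kinase that returns adenosine to AMP inside the cell, had 38.43, 35.26 and 34.60 TPM in Amuc_0904 libraries, against 31.43, 29.36 and 31.77 TPM in buffer libraries. Its groups did not overlap, and it did not pass (log2 fold change 0.22, limma adjusted p = 0.14). The receptor gene ADORA2B, chosen after its values were seen, was the most abundant adenosine receptor, at 21.8 TPM in Amuc_0904 libraries and 22.5 TPM in buffer libraries (limma adjusted p = 0.78). NT5E stood at 87.6, 81.6 and 105 TPM per 100 TPM of ADORA2B in Amuc_0904 libraries, against 60.8, 47.5 and 52.3 in buffer libraries.

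The intracellular nucleotidases, which are separate genes with related activities, gave 5 tested genes of 7, with 0 called by limma and 1 at an unadjusted p under 0.05. The most abundant were NT5C3B, at 74.2 ± 3.31 TPM in Amuc_0904 libraries and 77.3 ± 1.01 TPM in buffer libraries, and NT5C, at 71.9 ± 11.98 TPM in Amuc_0904 libraries and 69.7 ± 7.84 TPM in buffer libraries (limma adjusted p of 0.62 and 0.90). NT5E made up 7.76%, 7.60% and 9.16% of the summed TPM of all 8 nucleotidase genes in Amuc_0904 libraries, against 5.87%, 4.81% and 4.99% in buffer libraries. NT5E was therefore a minor part of this sum in both groups, and its share did not overlap between them. Medians of the adenosine and nucleotidase lists were -0.02 and -0.01 as deposited, and 0.13 and 0.10 after removal of the GC trend, so the sign of either median depends on the scaling.

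Among 9857 other genes with a symbol and a mean of at least 5 TPM, those whose log2(TPM + 1) followed NT5E most closely over the 6 libraries were RARS1 (Pearson r = 0.993), CD59 (0.993), B2M (0.992), BIRC3 (0.991) and AIMP1 (0.990). These r values describe libraries of 2 treatments and so reflect mostly the difference between groups. RARS1, an arginyl-tRNA synthetase gene, had 86.8 ± 2.20 TPM in Amuc_0904 libraries and 72.7 ± 3.01 TPM in buffer libraries. CD59, an inhibitor of complement on the cell surface, had 186 ± 7.66 TPM in Amuc_0904 libraries and 155 ± 6.53 TPM in buffer libraries. All 5 were higher in each Amuc_0904 library than in any buffer library, as were 7.00% of all tested genes. For these 5 that follows largely from their choice by likeness to NT5E. BIRC3, an inhibitor of apoptosis, had the largest log2 fold change of the 5, at 0.93. It had 14.99, 15.70 and 17.37 TPM in Amuc_0904 libraries, against 9.77, 6.38 and 7.94 TPM in buffer libraries. The other 9 genes of the pathway all had a log2 fold change below 0 as deposited, so nothing is read from their absence from these 5. Their r with NT5E lay between -0.952 (AXL) and 0.107 (ANKRD1).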

How the data were processed

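RNA was sequenced from 6 SW480 libraries, 3 per treatment. Per the labels' protocols, total RNA was extracted with TRIzol. The authors deposited 1 gene table in TPM, rounded to 2 decimals, with RSEM as the quantification tool per the labels. HISAT2, StringTie, edgeR and a mouse build (GRCm38.p6) appear in the submitters' processing notes, while the identifiers are human Ensembl genes, so the annotation behind the values is uncertain. Strand handling and annotation release are not given in the sources used here. TPM keeps no read depth.

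Genes with at least 1 TPM in at least 3 libraries (14421) were fitted as log2(TPM + 1) by the moderated two-sided test of limma 3.58.1, with its intensity trend, under R 4.3.3, treated minus buffer, with Benjamini-Hochberg adjustment over all tested genes and a threshold of 0.05. This scale understates changes of genes at low TPM. Folds are ratios of mean TPM. The workflow was tested on simulated data. Members and lists were chosen with earlier results of these data known. Each list was to give the 4 most changed genes among those called, or, with none called, its 2 most abundant ones, and for likeness to NT5E the 5 genes with the highest Pearson r. GC content came from the longest GENCODE 29 transcript (99.0% of tested genes), with a loess span of 0.3. Positions are from GENCODE 29 (GRCh38) and promoters from RefSeq. Alternatives were a pseudocount of 0.1, no filter, GC removal, a replicate block with and without GC removal, centring, quantile normalization and each library left out.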

Additional observations from a re-analysis of the deposited data

How the results depend on the processing

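Against 197 calls over all genes, 53 that rose and 144 that fell, there were 9 (7 rose, 2 fell) with no filter on low TPM, where 30992 genes were tested, 118 (40 fell) after GC removal, 85 (42 fell) after centring and 102 (56 fell) after quantile normalization. Without single libraries there were 35 to 112 calls, of which 15 to 38 rose and 20 to 74 fell. NT5E was the 1 call among the 10 genes, and the count was 0 with no filter and 0 to 1 without single libraries. Its log2 fold change was 0.68 to 0.76 in the 7 alternatives that keep all libraries, and it stayed past the threshold in 4 of them. The median of the 10 genes was -0.079 after centring, against 0.018 over all tested genes. After GC removal the median of the other TEAD and VGLL genes was -0.028, that of the adenosine genes 0.13 and that of the nucleotidases 0.10. The TEAD and VGLL median was -0.13 both after centring and after quantile normalization, and that of the nucleotidases was 0.069 after centring. None of the 16 genes named from the lists passed the threshold in any of the 13 alternatives. For results that moved, the cause was not tested.

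The replicate numbers are not stated to pair the libraries. Deviations from the group means correlated between libraries of the same number at -0.03, 0.08 and -0.09. With 3 libraries per group, these values cannot decide whether the libraries are paired. With the replicate number as a block there were 80 calls (27 rose, 53 fell) and 0 of the 10 genes. With the block and GC removal there were 12 (8 rose, 4 fell) and 0 of the 10, with list medians as after GC removal alone, -0.028 for the TEAD and VGLL genes, 0.13 for the adenosine genes and 0.10 for the nucleotidases. Groups of 3 libraries and an unknown depth limit what could be detected.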

Other observations

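A list of SRF and cytoskeletal genes, some of which are also known as YAP and TAZ targets, held 9 tested genes of 10. By limma 0 of them rose or fell and 6 had an unadjusted p under 0.05, with a median log2 fold change of -0.29 against -0.06 over all tested genes. An unadjusted limma p under 0.05 was found for 3001 of all 14421 tested genes. FLNA, which encodes the actin cross-linker filamin A, had 416.74, 449.93 and 428.91 TPM in Amuc_0904 libraries, against 541.60, 659.22 and 529.18 TPM in buffer libraries (limma adjusted p = 0.060). ACTN1, which encodes an alpha-actinin, had 291.02, 310.70 and 287.74 TPM in Amuc_0904 libraries, against 346.64, 388.13 and 356.07 TPM in buffer libraries (limma adjusted p = 0.063). Neither gene's groups overlapped. After removal of the GC trend the log2 fold change of FLNA was -0.21 in place of -0.41 and that of ACTN1 -0.23 in place of -0.29, and the list median was -0.21.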
